A study of Homo sapiens with 6 samples.

Results

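The genes described here are 10 negative feedback regulators of the extracellular signal-regulated kinase (ERK) pathway: the dual-specificity phosphatases DUSP2, DUSP4, DUSP5, DUSP6 and DUSP10, the Sprouty genes SPRY1, SPRY2 and SPRY4, and the Sprouty-related genes SPRED1 and SPRED2. They were chosen by name from the 30017 gene symbols of the count table. All 10 passed the filter on low counts that left 14758 genes for testing, and the other genes of the pathway were described from 6 lists holding 112 genes.

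In the ERK pathway, an activated growth factor or cytokine receptor loads RAS with GTP, and a relay of kinases (RAF, then MEK, then ERK) passes the signal on to transcription factors in the nucleus. Active ERK switches on transcription of its own inhibitors: DUSP proteins remove the activating phosphates from mitogen-activated protein (MAP) kinases, Sprouty proteins interfere between receptor and RAF, and Spred proteins bring the RAS inactivator NF1 to the membrane. The receptors for colony-stimulating factor 1 (CSF-1) and interleukin-3 (IL-3), which support macrophages and myeloid cells, signal through this pathway.

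RNA-seq was made from total RNA, after removal of ribosomal RNA, of BLaER cells, a human B cell leukemia line in which activation of the transcription factor CEBPA converts B cells into induced macrophages (iMacs). All 6 libraries came from the BLaER subclone CTCF-AID, in which the genome architecture protein CTCF carries an auxin-inducible degron. The 3 groups of 2 replicates each were untreated cells at 0 h, cells at 96 h of conversion without auxin (96 h control) and cells at 96 h of conversion with the auxin IAA from the start (96 h CTCF-depleted). Both groups at 96 h had received estradiol to activate CEBPA together with IL-3 and CSF-1, which the cells at 0 h had not, so that CEBPA, the cytokines and time in culture cannot be told apart in comparisons with 0 h. Cells without the degron that received IAA are not analysed here, so that IAA itself and loss of CTCF cannot be told apart either. The cells are a subclone of a single line, and p-values measure the spread between these samples. With 2 replicates per group, the spread used for each gene was drawn in large part from all genes together.

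Total counts ranged from 9273470 to 12718780 per library. The CTCF transcript, whose protein is the target of the degron, had 230.5 and 213.7 CPM (counts scaled to library size by TMM) at 0 h, 180.8 and 173.6 in the 96 h control and 190.9 and 188.9 after depletion. It differed by 0.10 on the log2 scale (SE 0.05, adjusted p = 0.119) between depleted and control libraries, and since the degron acts on the protein, this level does not measure the depletion. The 10 B cell markers were all lower at 96 h than at 0 h. Their summed level was 4000 to 4045 CPM at 0 h, 439 to 449 in control and 453 to 467 in depleted libraries. The 10 macrophage markers were all higher, at 96.4 to 107.6, 6402 to 6625 and 5787 to 5841 CPM. After depletion against control, 1 B cell marker was higher and 3 lower by the rule below, and 1 macrophage marker higher and 2 lower. Of the 10 B cell markers, 2 had a log2 fold change above 0 there (median -0.17). The called rise was CD22, from 34.8 to 96.6 CPM on average. Of the 10 macrophage markers, 5 were above 0 (median 0.016). Most of their sum at 96 h was LYZ, with means of 4527 CPM in control and 4158 CPM after depletion. Markers of other cells were at or near 0 for erythroid cells (5 of 5 at 0 in all libraries) and T cells (a sum of 1.03 to 2.22 CPM, with CD3D and CD3G at 0). Of the 5 fibroblast markers, COL3A1 and DCN were at 0, and the list's sum of 250.3 to 256.4 CPM at 0 h, 29.1 to 32.1 CPM in control and 32.7 to 32.8 CPM in depleted libraries came mainly from PDGFRB. Markers of dividing cells differed between the groups at 96 h: 5 of 6 fell after depletion, and their summed level was 2229 to 2236 CPM at 0 h, 1476 to 1530 CPM in control and 918 to 935 CPM in depleted libraries. Whether the lower level of these markers has a part in the changes of the feedback genes was not tested.

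A gene was called higher or lower where edgeR's quasi-likelihood test gave a Benjamini-Hochberg adjusted p below 0.01 and the log2 fold change exceeded 0.6 in size, the thresholds of the study. Through conversion in the presence of CTCF, 4 of the 10 feedback genes rose (DUSP5, DUSP6, DUSP10 and SPRED1), 4 fell (DUSP2, DUSP4, SPRY1 and SPRY2) and 2 did not pass (SPRY4 and SPRED2), beside 25.4% of all genes tested that rose and 22.9% that fell. After CTCF depletion, SPRY2, SPRY4 and DUSP10 were higher than in the 96 h control and 0 feedback genes were lower, beside 5.41% and 7.03% of all genes. In these bulk libraries, fewer cells expressing a gene and less RNA per cell cannot be told apart.

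The promoters of the 3 genes that rose after depletion are shown because these genes moved together in that comparison. The sequences are from RefSeq (GRCh38.p14), and each covers the 250 bases before an annotated start, read 5′ to 3′ on the minus strand, which is the strand of all 3 genes. Capitals mark matches to the motifs named below.
SPRY2, chr13:80341127-80341376: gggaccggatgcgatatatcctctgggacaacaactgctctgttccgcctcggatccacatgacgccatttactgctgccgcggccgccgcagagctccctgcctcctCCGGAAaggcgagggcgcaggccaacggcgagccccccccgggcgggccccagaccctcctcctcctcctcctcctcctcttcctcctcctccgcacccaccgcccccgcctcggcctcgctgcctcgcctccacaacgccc
SPRY4, chr5:142324248-142324497: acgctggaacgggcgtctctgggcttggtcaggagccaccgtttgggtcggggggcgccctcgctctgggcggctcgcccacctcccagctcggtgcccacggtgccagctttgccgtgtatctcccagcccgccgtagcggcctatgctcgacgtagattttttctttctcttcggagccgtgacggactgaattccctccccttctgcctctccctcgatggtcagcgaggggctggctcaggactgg
DUSP10, chr1:221742090-221742339: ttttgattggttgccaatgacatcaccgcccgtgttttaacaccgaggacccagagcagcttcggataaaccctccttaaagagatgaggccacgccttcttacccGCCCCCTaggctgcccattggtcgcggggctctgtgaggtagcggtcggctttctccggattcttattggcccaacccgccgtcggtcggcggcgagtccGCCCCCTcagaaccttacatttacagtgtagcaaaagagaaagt

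The SPRY2 stretch is 70.4% G and C and holds 1 match to the core CCGGAA bound by ETS factors, the family through which ERK often acts on transcription, with its first base at position -142 from the start. The SPRY4 stretch, which lies within the longer gene of the GENCODE annotation, is 65.6% G and C and held no match. The DUSP10 stretch is 56.4% G and C and holds 2 reverse matches to AGGGGGC, a core of the CTCF motif, at positions -144 and -44. Promoter windows of 300 bases, which run to 50 bases past the start, were available for 8 of the 10 genes (13 windows), and the entries for DUSP4 and DUSP5 were missing. On either strand, CCGGAA was present in 2 of the 13 windows (15.4%, in SPRY2 and SPRY1) and in 17.2% of 35116 windows of all genes, and AGGGGGC in 2 of 13 (DUSP10 and SPRY1) and in 14.4%. The AP-1 motif TGACTCA was found in 1 of 13 windows (SPRED2) and in 4.95% of all windows. The short C/EBP form TTNCNNAA was in 4 of 13 windows (30.8%, in DUSP10, SPRED2 and SPRY1) and in 36.8% of all. The octamer TGAATGAA of the ERK-controlled repressor CIC (1.65% of all windows), the cAMP response element TGACGTCA (1.85%) and the C/EBP palindrome TTGCGCAA (0.151%) had 0 matches in the 13. The palindromes TGACGTCA and TTGCGCAA read alike on both strands, and any TTGCGCAA is also a TTNCNNAA. These matches describe letters in the windows and are not binding sites, and binding of these factors was not analysed here.

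DUSP6, the cytoplasmic phosphatase with a strong preference for ERK, was the most abundant feedback transcript per length at 96 h. The gene lies at chr12:89347235-89352501 (hg38, minus strand). It had 100.6 and 97.1 CPM at 0 h, 572 and 563 CPM in the control at 96 h and 658 and 658 CPM after depletion. The 3 groups did not overlap, and the difference between 0 h and control was much larger than that between control and depleted libraries. DUSP6 rose 5.74-fold through conversion (log2 fold change 2.52, SE 0.05, adjusted p = 2.69e-45). The further difference after depletion was 0.21 (SE 0.04, adjusted p = 6.24e-05), which is past the p threshold and under the fold threshold.

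DUSP5, the nuclear phosphatase that binds and inactivates ERK, was nearly undetected in the B cells. The gene, at chr10:110497907-110511533, had 3 and 0 counts at 0 h, 39 and 24 in control and 56 and 51 after depletion. Both groups at 96 h lay above 0 h in every library. From the 3 counts at 0 h, the ratio of control to 0 h was 21.9, with a 95% interval of 7.14 to 108.8 that covers counting error only, and DUSP5 was called higher in control (log2 fold change 4.33, adjusted p = 6.8e-09). The fitted value rests on the 0 h libraries: it was 3.11 without 0 h replicate 2 and 8.01 without 0 h replicate 1, and was called both times. Between depleted and control libraries the difference was 0.79 (95% interval 0.21 to 1.38, adjusted p = 0.0251), and although the libraries did not overlap, it was not called. Reads of the pseudogene DUSP5P1 did not exceed 2 counts in a library.

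DUSP4 and DUSP2, both inducible phosphatases of the nucleus, went the other way. DUSP4, on chromosome 8, had 185 and 175 CPM at 0 h, 26.3 and 27.8 CPM in control and 39.0 and 34.6 CPM in depleted libraries. It fell through conversion by 2.74 on the log2 scale (SE 0.08, adjusted p = 6.97e-38), to 0.150 of its level at 0 h. Depleted libraries lay above control libraries by 0.45 (SE 0.09, adjusted p = 4.81e-05), under the fold threshold, and remained far below the level at 0 h. DUSP2, at chr2:96143169-96145440, had 14.2 and 11.8 CPM at 0 h, 5.21 and 4.54 CPM in control and 3.15 and 5.16 CPM in depleted libraries. It fell through conversion by 1.40 (SE 0.19, adjusted p = 4.41e-09). DUSP2 was the single feedback gene with a log2 fold change below 0 between depleted and control libraries (-0.23, 95% interval -0.71 to 0.25, adjusted p = 0.483). Its libraries overlapped there, and the value was 0.12 without CTCF-depleted replicate 1.

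DUSP10, which acts mainly on the MAP kinases p38 and JNK rather than ERK, was called higher in both comparisons. The gene lies at chr1:221701424-221742089. It had 4.54 and 4.50 CPM at 0 h, 22.2 and 22.5 CPM in control and 40.6 and 35.6 CPM after depletion. Replicates lay close together at 0 h and in control and further apart after depletion, and the groups did not overlap. The rise was 4.94-fold through conversion (2.30, SE 0.15, adjusted p = 7.91e-21) and 1.70-fold after depletion against the control (0.77, SE 0.10, adjusted p = 1.21e-08). The interval of the second change, 0.56 to 0.98, includes the fold threshold, and the call was lost when the test itself was made against that threshold (glmTreat, adjusted p = 0.184).

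SPRY2, a membrane-associated inhibitor that is itself phosphorylated downstream of receptors, had the largest change of the 10 genes after depletion. The gene lies at chr13:80335976-80341126. It had 47.6 and 43.2 CPM at 0 h, 24.6 and 17.6 CPM in control and 67.9 and 68.5 CPM in depleted libraries. The control libraries were the lowest and the most scattered, and the depleted libraries lay above those of both other groups. SPRY2 fell through conversion by 1.09 (SE 0.10, adjusted p = 6.74e-15) and stood 3.23-fold higher in depleted than in control libraries (1.69, 95% interval 1.50 to 1.88, adjusted p = 4.09e-22). Against 0 h, depleted libraries were 1.50-fold higher (0.59, SE 0.08, adjusted p = 8.65e-09), just under the fold threshold.

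SPRY4, a related inhibitor that also binds RAF, was called against 0 h in the depleted libraries and not in the control. The gene, at chr5:142310427-142326455, had 29.2 and 29.4 CPM at 0 h, 31.7 and 28.2 CPM in control and 56.8 and 60.7 CPM after depletion. The control and 0 h libraries overlapped (0.03, 95% interval -0.15 to 0.21, adjusted p = 0.746). SPRY4 rose 1.96-fold after depletion (0.97, SE 0.08, adjusted p = 6.54e-15). An antisense RNA, SPRY4-AS1, overlaps the gene from the opposite strand and is not in the count table; the strand setting of the counting is not given in the sources used here, so that reads of the antisense RNA in the SPRY4 count cannot be told apart. DUSP6 and SPRED2 also overlap RNAs that are not in the table.

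SPRY1, a further Sprouty inhibitor of the receptor-to-RAF step, fell through conversion to the limit of detection. The gene, at chr4:123396795-123403760, had 81 and 106 counts at 0 h, 2 and 4 in control and 2 and 5 after depletion. The level in control was 0.0334 of that at 0 h (95% counting interval 0.0121 to 0.0741), which was called lower (adjusted p = 3.27e-16). At this depth a difference between depleted and control libraries was not detectable, since the ratio of 1.19 had a counting interval of 0.343 to 4.29.

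The Spred genes took separate courses through conversion. SPRED1, at chr15:38252836-38357249, had 41.5 and 49.1 CPM at 0 h, 108.7 and 105.8 CPM in control and 142 and 136 CPM in depleted libraries. It rose 2.37-fold through conversion (1.23, SE 0.07, adjusted p = 1.26e-22), and the further difference after depletion, 0.38 (SE 0.06, adjusted p = 2.97e-06), was under the fold threshold. SPRED2, at chr2:65310851-65432637, had 43.5 and 44.3 CPM at 0 h, 44.5 and 45.0 CPM in control and 52.5 and 52.1 CPM in depleted libraries. Between control and 0 h it differed by little (0.03, 95% interval -0.13 to 0.19, adjusted p = 0.769) and stood 0.23 higher after depletion (SE 0.08, adjusted p = 0.0186), which was not called.

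**Figure D1:**
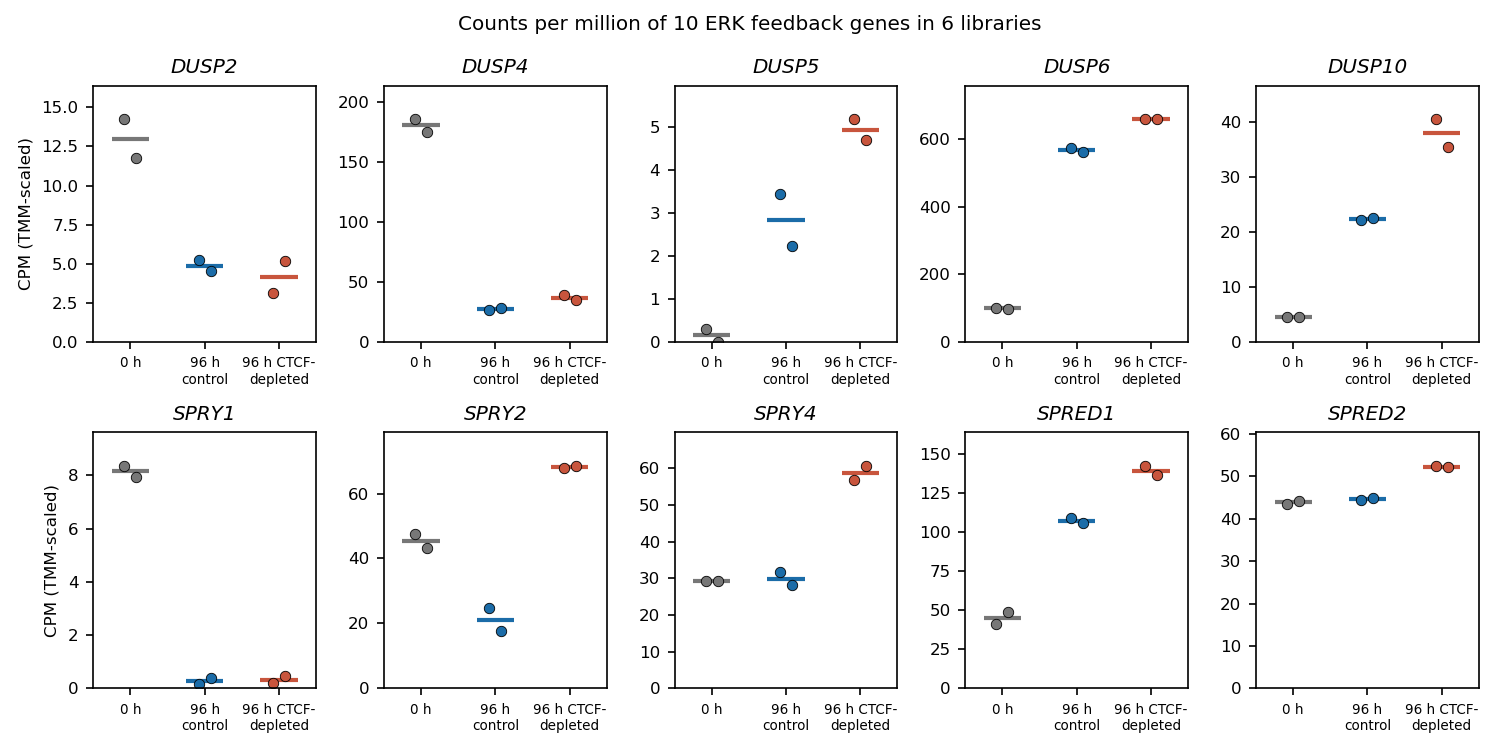
TMM-scaled CPM of each feedback gene (vertical axis, linear from 0 and scaled per gene) in the 3 groups; dots are the 2 libraries of a group and lines are group means. SPRY2 was lowest in the 96 h control (24.6 and 17.6 CPM) and highest after depletion (67.9 and 68.5 CPM), while DUSP6 stood at 100.6 and 97.1 CPM at 0 h and at 572 and 563 CPM in the 96 h control.

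Through conversion, the median log2 fold change was 0.03 for the 10 feedback genes, 0.02 for all genes and 0.38 for the other genes of the pathway. After depletion, 3 feedback genes were called higher and 0 lower. DESeq2 gave the same counts, beside 560 higher and 721 lower over all genes. At an unadjusted p below 0.05 the counts were 8 higher and 0 lower, a rule for which no share of all genes is given. With an adjusted p below 0.05 and no fold threshold, 8 of 10 were higher, against 16.1% of all genes. In 8 of 10 both depleted libraries lay above both control libraries, as in 30.1% of all genes, and in 0 of 10 both lay below, as in 37.8%. The median log2 fold change after depletion was 0.41 for the feedback genes, -0.03 for all genes and 0.01 for the other pathway genes. Since the 10 genes were chosen with results of these libraries known, these shares are a description.

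**Figure D2:**
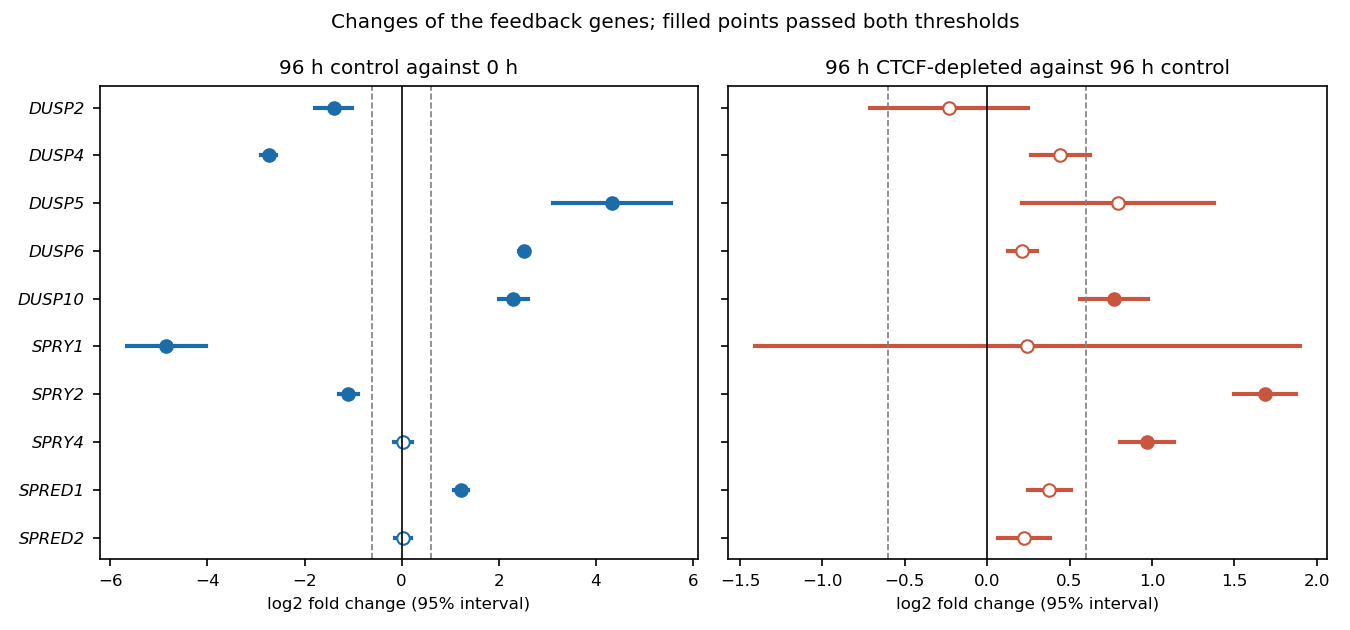
Log2 fold changes of the feedback genes (horizontal axis) with 95% intervals through conversion (left) and after CTCF depletion (right); filled points passed both thresholds, dashed lines mark the fold threshold of 0.6, and the 2 panels have different ranges. The 3 filled points on the right are DUSP10 (0.77), SPRY2 (1.69) and SPRY4 (0.97), and the wide interval of SPRY1 rests on 2 to 5 counts per library.

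Set against the starting cells, conversion with IAA left 5 feedback genes higher (DUSP5, DUSP6, DUSP10, SPRY4 and SPRED1) and 3 lower (DUSP2, DUSP4 and SPRY1), beside 27.2% and 25.2% of all genes. The log2 fold changes were 2.74 for DUSP6 (SE 0.05, adjusted p = 4.04e-47), 3.07 for DUSP10 (SE 0.14, adjusted p = 3.97e-28), 1.61 for SPRED1 (SE 0.07, adjusted p = 2.21e-28) and 1.00 for SPRY4 (SE 0.08, adjusted p = 1.4e-16). DUSP4 stood at -2.29 (SE 0.07, adjusted p = 5.73e-35) and DUSP2 at -1.63 (SE 0.20, adjusted p = 1.59e-10). This comparison shares its 0 h libraries with the comparison of the 96 h control against 0 h and its depleted libraries with the comparison at 96 h, and is not independent of either.

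Levels can be set side by side between genes only per length, here as CPM per kilobase of summed exon (RPKM). At 0 h, the leading DUSP transcripts were DUSP6, with 26.1 and 25.1 RPKM, and DUSP4, with 25.5 and 24.1 RPKM, ahead of DUSP2, and the order of this pair was within their spread and turned with the length of the longest transcript (27.2 for DUSP6 and 32.4 for DUSP4 on average). In the 96 h control, DUSP6 had 148 and 146 RPKM and DUSP4 had 3.62 and 3.82 RPKM. DUSP6 thus made up 43.0% and 44.2% of the summed level of the 5 DUSP genes at 0 h, 90.5% and 90.7% in control and 87.9% and 88.6% in depleted libraries.

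The same sum over the 5 Sprouty and Spred genes was 34.6 and 34.3 RPKM at 0 h, 34.7 and 31.7 RPKM in the 96 h control and 57.7 and 57.8 RPKM after depletion. Within a similar sum, the leading gene differed: SPRY2 contributed 42.8% and 39.2% at 0 h and 22.1% and 17.3% in control, while SPRED1 contributed 15.5% and 18.5% at 0 h and 40.5% and 43.0% in control. In depleted libraries SPRY2 again led, with 36.6% and 36.9%, ahead of SPRED1 with 31.8% and 30.5%.

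The mean level of each gene per length gives the order at 0 h as DUSP6 (25.6 RPKM), DUSP4 (24.8), SPRY2 (14.1), SPRED2 (7.97), DUSP2 (6.74), SPRED1 (5.84), SPRY4 (4.47), SPRY1 (2.06), DUSP10 (1.60) and DUSP5 (0.061). The libraries of DUSP6 and DUSP4 overlapped, as did those of DUSP2 and SPRED1. In control the order was DUSP6 (147 RPKM), SPRED1 (13.8), SPRED2 (8.13), DUSP10 (7.90), SPRY2 (6.57), SPRY4 (4.57), DUSP4 (3.72), DUSP2 (2.53), DUSP5 (1.12) and SPRY1 (0.069), and no neighbours in this order overlapped. After depletion SPRY2 stood second (21.2 RPKM) after DUSP6 (170), followed by SPRED1 (18.0), DUSP10 (13.5), SPRED2 (9.50), SPRY4 (8.96), DUSP4 (5.06), DUSP2 (2.15), DUSP5 (1.95) and SPRY1 (0.081), with overlap between DUSP2 and DUSP5.

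**Figure D3:**
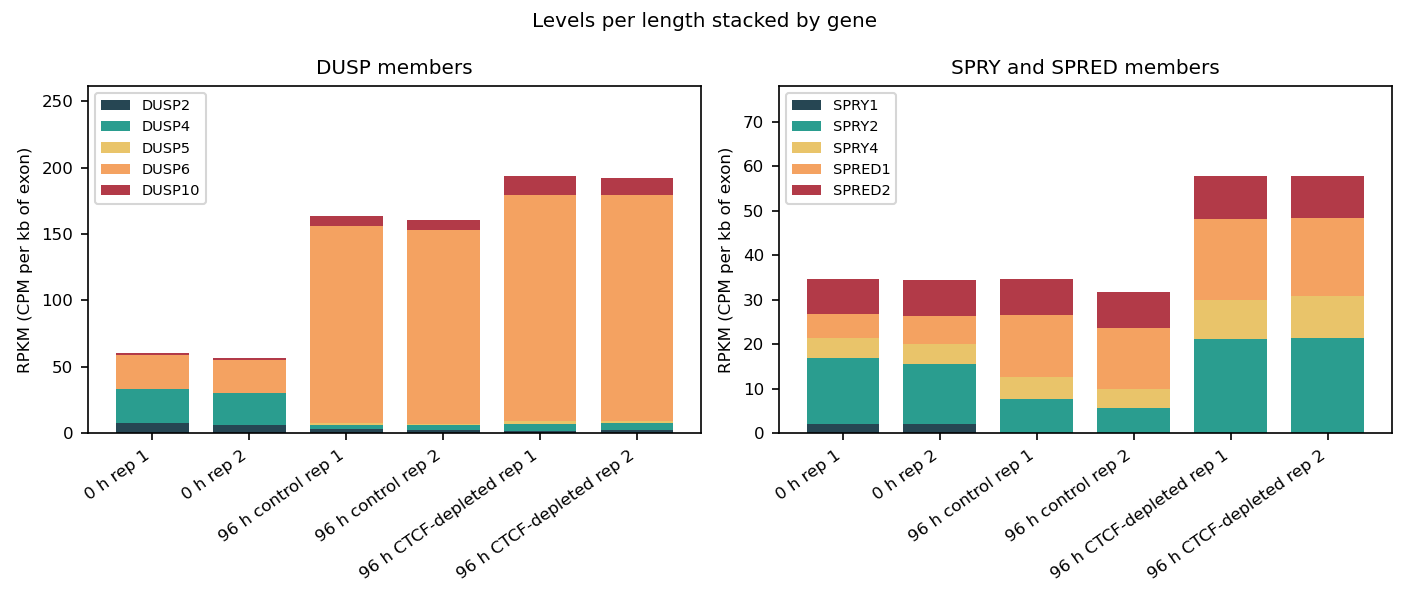
Levels per kilobase of exon (RPKM, linear axis from 0) stacked by gene in each of the 6 libraries, for the 5 DUSP genes (left) and the 5 Sprouty and Spred genes (right). DUSP6 fills most of the left bars at 96 h (87.9% to 90.7%), and the right bars are of similar height at 0 h and in control and taller after depletion (57.7 and 57.8 RPKM).

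Of the 8 further DUSP, SPRY and SPRED genes that were examined, 0 were called higher after depletion and 2 lower. They are part of the list of other negative regulators, which had 27 genes, of which 0 were called higher and 6 lower at 96 h (at an unadjusted p below 0.05, 6 higher and 11 lower; DESeq2 called 0 and 3). Over all genes, 5.41% were called higher and 7.03% lower after depletion, shares that apply to the lists below as well. These shares hold for the rule with both thresholds, and no share of all genes is given for an unadjusted p below 0.05. DUSP16, a phosphatase of JNK and p38, fell by 0.71 (10.6 and 8.06 CPM in control, 5.74 and 5.71 CPM after depletion, adjusted p = 0.00217). DUSP9 fell from 12 and 6 counts to 2 and 0 counts, a ratio of 0.114 with a counting interval of 0.0128 to 0.474. The others of these 8 were not called: log2 fold changes were -0.22 for DUSP1 (adjusted p = 0.0299), -0.19 for DUSP3 (0.0314), 0.28 for DUSP7 (0.00948), 0.56 for DUSP8 (0.409), -0.46 for SPRY3 (0.0517) and 1.07 for SPRED3 (0.115, on 4 to 16 counts per library). The remaining genes that fell were CBLB, a ubiquitin ligase for receptors (-0.74, adjusted p = 1.19e-13), and the RAS GTPase-activating proteins DAB2IP (-1.31, adjusted p = 1.74e-10), RASAL2 (-1.33, adjusted p = 9.21e-08) and RASAL1 (-1.54, adjusted p = 0.00469). RASAL1 rested on few counts, 12 and 27 in control and 9 and 4 after depletion.

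Through conversion, 9 of these 27 regulators rose and 7 fell, beside 25.4% and 22.9% of all genes. DUSP3, a small phosphatase that acts on ERK and JNK, rose from 15.4 and 11.6 CPM to 116.3 and 115.9 CPM (3.13, adjusted p = 5.14e-37), and SPRY3 rose 2.63-fold (adjusted p = 1.13e-07). DUSP1, the immediate early MAP kinase phosphatase, fell by 0.83 (adjusted p = 2.15e-14), DUSP9 fell by 2.37 (adjusted p = 4.62e-07) and SPRED3 fell by 1.88 (adjusted p = 0.000433). The log2 fold changes of DUSP7 (-0.17), DUSP8 (0.63) and DUSP16 (-0.12) were not called. Regulators of RAS and of receptor signalling also rose, among them RASA2 (2.63), RASA3 (1.10), RASAL3 (1.23) and the lipid phosphatase INPP5D (1.64), while RASAL1 (-4.39) and the RAF inhibitor PEBP1 (-1.09) fell.

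Among 18 receptors and adaptors upstream of RAS, 17 were tested. Of these, 6 rose and 2 fell through conversion, beside 25.4% and 22.9% of all genes. The CSF-1 receptor CSF1R rose 8.23-fold (33.2 to 273.7 CPM on average, adjusted p = 5.67e-45) and the alpha chain of the IL-3 receptor, IL3RA, 29.6-fold (2.01 to 59.3 CPM, adjusted p = 5.93e-38). CSF2RB, the signalling chain of that receptor, named here after its values were seen, went from 54.4 to 36.0 CPM (-0.59, adjusted p = 2.53e-09), just under the fold threshold. The adaptor GAB2 (1.88), the RAS exchange factor SOS2 (1.57) and IGF1R (0.63) rose as well. FGFR1 fell by 2.19 and KIT fell from 70 counts to 2 over the group, a ratio of 0.0297 (counting interval 0.00353 to 0.111). After depletion, 1 of the 17 was higher and 1 lower. FGFR1 rose 2.41-fold, from 25.2 to 60.7 CPM on average (adjusted p = 1.18e-18), against 115 CPM at 0 h, and GAB2 fell by 0.97, from 326 to 166 CPM (adjusted p = 4.69e-24).

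Of the 18 genes of RAS, RAF, MEK and ERK, 17 were tested. Through conversion, 5 rose and 2 fell, beside 25.4% and 22.9% of all genes. The largest changes were in the RASGRP exchange factors. RASGRP4 rose from 7 counts to 798 over the group (ratio 118.6, counting interval 57.3 to 296.0), RASGRP2 rose 3.46-fold (adjusted p = 3.67e-33) and RASGRP3 rose from 4 counts to 52 (ratio 13.5, counting interval 4.98 to 51.5), whereas RASGRP1 fell by 3.24 (adjusted p = 9.85e-19). The scaffold KSR1 (1.28) and the MEK kinase MAP2K1 (0.83) rose and HRAS (-0.75) fell. After depletion, 0 were called higher and 1 lower (at an unadjusted p below 0.05, 5 higher and 6 lower; DESeq2 called 1 and 1). RASGRP1 was the gene that fell, from 35 counts to 7 over the group (ratio 0.204, counting interval 0.0766 to 0.467).

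Of 18 transcripts known to be induced by ERK, 16 were tested. Over all genes, 25.4% rose and 22.9% fell through conversion. Through conversion, 7 rose, among them FOS (4.03, adjusted p = 8.19e-42), JUNB (2.70), IER3 (2.84), FOSB (3.16) and IER2 (0.62), and 5 fell: MYC (-2.12, adjusted p = 5.13e-40), EGR1 (-3.53), ETV5 (-2.16), EPHA4 (-3.81) and ETV1 (-2.73). After depletion, 4 rose and 1 fell (DESeq2 called 3 and 1). EGR1, an immediate early transcription factor, had 176 and 145 CPM at 0 h, 13.9 and 13.8 CPM in control and 112 and 104 CPM after depletion, and rose 7.81-fold (2.96, SE 0.09, adjusted p = 8.81e-33). EGR2 (1.88, adjusted p = 6.11e-13), EGR3 (1.92, adjusted p = 0.00107) and the AP-1 subunit FOSL1 (1.78, adjusted p = 9.81e-14) also rose. JUNB fell by 1.04, from 188 and 200 CPM to 98.6 and 90.7 CPM (adjusted p = 4.49e-21). In these EGR genes, FOSL1 and SPRY2, depleted libraries lay above control libraries without overlap, as in 30.1% of all genes. They are grouped here because they were called higher in that comparison, so that the separation was largely set by the choice. EGR1 and EGR3 (5 and 7 counts in control) were, like SPRY2, lowest in the control, while EGR2 and FOSL1 were lowest at 0 h. Other genes were lowest in the control too. At 0 h, in control and after depletion, mean levels were 500, 114 and 160 CPM for MYC and 74.7, 16.7 and 19.7 CPM for ETV5. For the feedback gene DUSP4 they were 180, 27.0 and 36.8 CPM. This order is therefore not particular to SPRY2 and the EGR genes.

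The 15 effector kinases and ternary complex factors, which carry the ERK signal to its target genes, were all tested. The shares of all genes that rose and fell through conversion were 25.4% and 22.9%. Through conversion, 7 rose and 0 fell (0 fell by DESeq2 or at an unadjusted p below 0.05 either), with ETS1 (1.97, adjusted p = 3.17e-38), the kinases MKNK1 (2.15), RPS6KA1 (1.20) and RPS6KA3 (0.91) and the ternary complex factor ELK3 (1.06) among them. After depletion ELK3 alone was called, 1.63-fold higher (0.71, adjusted p = 2.86e-12), and 0 were called lower (3 at an unadjusted p below 0.05 and 0 by DESeq2).

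The 16 kinases of the JNK and p38 pathways include substrates of DUSP10. Through conversion 4 rose and 4 fell, beside 25.4% and 22.9% of all genes. The p38 kinase MAPK14 rose 2.30-fold (1.20, adjusted p = 1.09e-27), and MAPKAPK3 (0.87), MAP3K7 (0.71) and MAP3K5 (0.73) rose too. MAPK13 (-1.47), MAP2K6 (-2.10) and MAP3K1 (-1.02) fell, and the JNK kinase MAPK10 fell from 38 counts to 2 over the group. After depletion, 0 were called in either direction by edgeR's quasi-likelihood test or DESeq2, with 5 higher and 3 lower at an unadjusted p below 0.05.

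**Figure D4:**
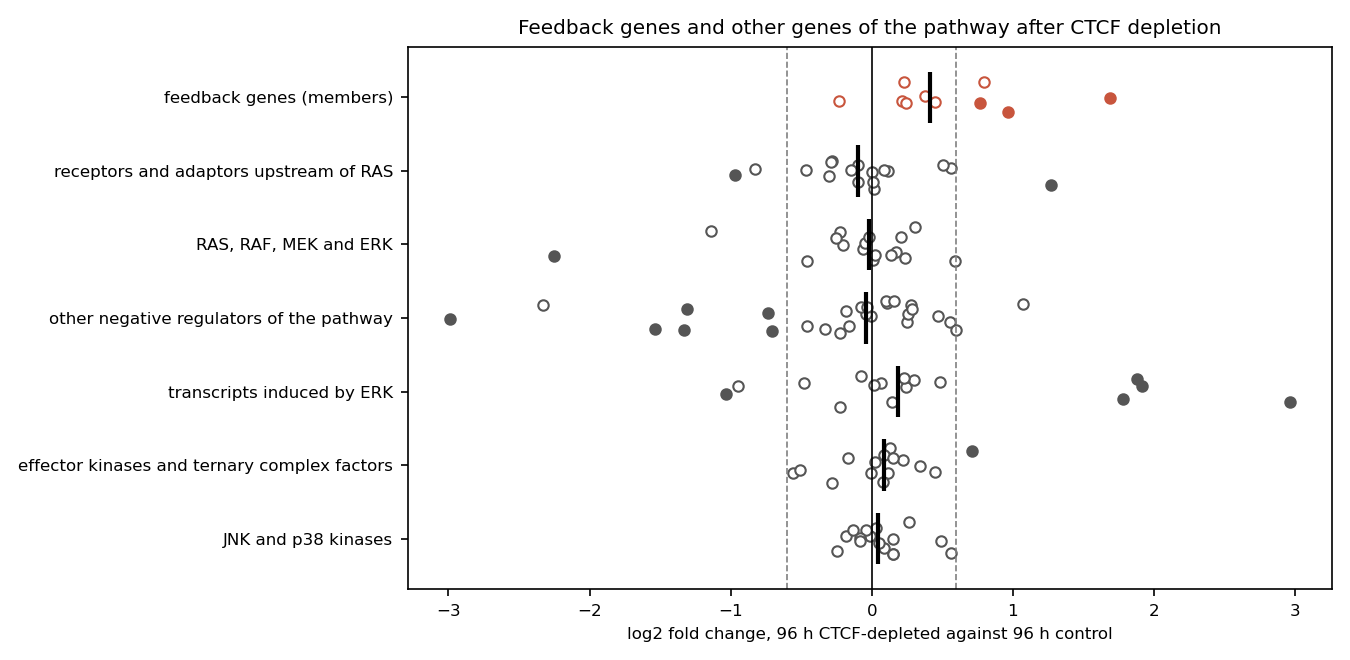
Log2 fold change between depleted and control libraries at 96 h (horizontal axis) of the feedback genes and of the other tested genes in 6 pathway lists; each point is a gene, filled points passed both thresholds, and bars are list medians. The feedback genes have a median of 0.41 with 3 filled points, all to the right, and the list of other negative regulators has 6 filled points, all to the left.

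Since auxin can act on the aryl hydrocarbon receptor, 5 of its target genes were examined beside the feedback genes. Their summed level was 42.5 to 44.5 CPM in control and 60.7 to 63.6 CPM in depleted libraries, carried by TIPARP, with 36.9 and 39.1 CPM in control and 57.1 and 53.7 CPM after depletion (0.55, SE 0.08, adjusted p = 7.23e-08, under the fold threshold). Of the 2 that could be tested, 0 were called after depletion (1 higher at an unadjusted p below 0.05, 0 by DESeq2), CYP1B1 was at 0 in all libraries, and CYP1A1 averaged 0.139 CPM in control and 0.0463 CPM after depletion. The part of this receptor in the changes of the feedback genes was not tested.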

How the data were processed

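RNA-seq was measured in 6 libraries of the BLaER subclone CTCF-AID, grouped by their labels. The authors aligned reads to hg38 with STAR 2.6.1d and counted them per gene with featureCounts 2.0.6, per the labels and methods; the deposited values are raw counts without normalization. The annotation release and strand setting are not given in the sources used here. Total counts of 9273470 to 12718780 per library limit precision, and counting intervals cover counting error only.

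The counts were fitted with edgeR 4.0.16 under R 4.3.3: filterByExpr, TMM scaling and a quasi-likelihood fit of all 6 libraries with group as the only term, adjusted over 14758 genes with the Benjamini-Hochberg method. The study's own tool, DESeq2, was run as version 1.42.0 as an alternative. Other alternatives were RLE scaling, other filters and thresholds, glmTreat, the 4 compared libraries alone, a replicate block and leaving out each library. CPM are TMM-scaled. Positions and exon lengths are from GENCODE release 44, promoters from RefSeq. On simulated data with 200 genes changed by 1 on the log2 scale between depleted and control libraries, the fit of 14758 genes recovered 191 with 2 false calls. The changed genes were drawn from well-counted genes, so that recovery of low-count genes or of smaller changes was not measured.

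The feedback genes, the pathway and marker lists and the tests were chosen with earlier results of these data known. Named genes are the 10 feedback genes, CTCF, cell markers, up to 5 called genes per direction and list (by adjusted p), the other DUSP, SPRY and SPRED genes, and the 3 genes with profiles nearest to SPRY2. Not every gene that this rule covers is reported here. TIPARP and neighbouring genes were described after their values were seen.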

Additional observations from a re-analysis of the deposited data

Results flagged for a closer look

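In 3 feedback genes, the change from 0 h to 96 h differed past both thresholds between cells converted with and without CTCF. Because both changes are measured against the same 0 h libraries, the test of their difference is the comparison of depleted with control libraries at 96 h by edgeR's quasi-likelihood test. By that test 6 of the 10 feedback genes had an adjusted p below 0.01, and the fold threshold left these 3. No share of all genes is given for that p threshold alone. At an adjusted p below 0.05 with no fold threshold, 2375 of all 14758 genes were higher and 3330 lower. By the rule with both thresholds, 5.41% of all genes were called higher and 7.03% lower. The difference of the log2 fold changes, depleted minus control, was 1.69 for SPRY2 (adjusted p = 4.09e-22), which stood at -1.09 against 0 h in control and at 0.59 in depleted libraries. It was 0.97 for SPRY4 (adjusted p = 6.54e-15), which stood at 0.03 and 1.00. It was 0.77 for DUSP10 (adjusted p = 1.21e-08), which stood at 2.30 and 3.07. The depleted libraries were higher than the control libraries in 2 of 2 for each of these genes. No outlier test was made, since it needs at least 4 samples in a group.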

How the results depend on the processing

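Of 383 recomputed log2 fold changes of the feedback genes, 364 kept their direction and side of the thresholds, 7 passed them newly, 1 no longer passed and 11 changed sign. The sign changes were in values that were not called under either setting: between control and 0 h, SPRY4 (-0.0047 with no filter on low counts, -0.090 to 0.12 with a library left out) and SPRED2 (-0.011 with no filter, -0.010 to 0.025); after depletion, DUSP2 (-0.60 to 0.12 with a library left out) and SPRY1 (-0.50 to 0.86). The value that no longer passed was DUSP10 after depletion under glmTreat (adjusted p = 0.184; over its alternatives, 6.28e-13 to 0.184). DUSP5 was called after depletion with no filter on low counts (0.83, adjusted p = 0.00892) and with only the 4 libraries compared (0.83, adjusted p = 0.00723), but was 0.55 to 1.18 when a library was left out. SPRY2 against 0 h passed the fold threshold in depleted libraries under 5 alternatives, between 0.60 and 0.69. The number of feedback genes higher after depletion was 3, against 8 with an adjusted p below 0.05 and no fold threshold, 1 with a log2 fold change above 1, 4 with no filter or 4 libraries, 2 with glmTreat, and 3 without any single library. Of the other pathway genes, 38 rose through conversion, against 63 with no fold threshold, and 20 fell, against 12 with at least 10 counts in every library, a filter that removes genes low in 1 group, among them SPRY1 and DUSP5. After depletion 6 pathway genes rose and 9 fell, against 25 and 29 with no fold threshold. With glmTreat 5 fell, and with a library left out 5 to 9 fell, the lowest without CTCF-depleted replicate 2. Thresholds and filters change such counts by construction, and the cause of the change without that library was not tested. Over all genes the calls after depletion were 798 higher and 1038 lower, 2375 and 3330 with no fold threshold, 409 and 436 with a log2 fold change above 1, and 298 and 344 with glmTreat. Leaving out a library gave 1.50 to 1.99 for SPRY2, 0.92 to 1.09 for SPRY4 and 0.71 to 0.89 for DUSP10 after depletion; a lone library was assumed to vary like the others. Replicate numbers did not pair the samples (correlations of replicate differences -0.0194, 0.0109 and -0.0294), and a replicate block gave 3 higher and 0 lower feedback genes after depletion, and 4 and 4 through conversion. At 2 to 5 counts per library, SPRY1 changes at 96 h were not measurable, and 2 libraries against 2 cannot reach a permutation p below 0.333.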

Other observations

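The genes whose profile over the 6 libraries was nearest to that of SPRY2, by Euclidean distance of centred log2 CPM among 14757 other genes tested, were the mitochondrial carrier SLC25A45 (distance 0.260), PI16 (0.405) and LOC102724792 (0.446). They were picked for likeness to SPRY2 over these same libraries. Being lowest in the 96 h control and higher after depletion therefore follows from the choice. Their log2 fold changes after depletion were 1.84, 2.02 and 1.74. Mean levels were 2.80, 1.04 and 0.406 CPM in control and 10.1, 4.25 and 1.39 CPM in depleted libraries.

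The nearest tested protein-coding gene on each side of each feedback gene was described after the values were seen. Of these 20 neighbours, 2 were called higher after depletion, 2 lower and 16 not, beside 5.41% and 7.03% of all genes. HLX, a homeobox gene 816 kb from DUSP10, rose from 139 to 229 CPM on average (0.72, adjusted p = 1.78e-16), and ARHGAP26, 444 kb from SPRY4, from 319 to 515 CPM (0.69, adjusted p = 1.34e-17). SPATA5, 77.4 kb from SPRY1, fell by 0.95 (adjusted p = 4.96e-10), and ANKRD36C, 151 kb from DUSP2 and a member of a family with near-identical copies, fell by 1.78 (adjusted p = 4.69e-24). The neighbours of SPRY2 lie far away: RBM26 at 929 kb and TGDS at 14233 kb each had a log2 fold change of -0.03 (adjusted p = 0.634 and 0.891).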
